A study of Mus musculus with 6 samples.

Results

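The BCL2 family apoptosis regulators examined here were 10 genes chosen by name: the pro-survival genes Bcl2, Bcl2l1 and Mcl1, the effectors Bax and Bak1, and the BH3-only genes Bid, Bcl2l11, Bik, Bmf and Pmaip1. They are 10 of the 55487 genes in the deposited count table, and each name matched 1 row. The RNA came from KP tumours of mouse lung, and both groups share the KP background. One group received sgNeo, which serves as the control and keeps Lkb1 intact, and the other sgLkb1, a guide that targets Lkb1, whose gene symbol is Stk11. At 11 weeks after the start of the tumours, GFP-positive CD45-negative cells were sorted, and 3 libraries were sequenced per group. The labels used here give no strain, sex or age, no number of tumours or animals per library, and do not tie replicates to different animals. The p-values therefore rest on a spread among samples that may be only technical.

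Proteins of this family decide whether the outer mitochondrial membrane is opened, the step that releases cytochrome c and starts the caspase cascade. Effectors form the pores, pro-survival proteins hold effectors and BH3-only proteins in check through a surface groove, and BH3-only proteins fill that groove or activate effectors when a cell is stressed, starved of growth factor or detached. LKB1, the kinase encoded by Stk11, activates AMPK and the SIK kinases, and its loss is known to alter how cells meet metabolic stress.

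The members share a short BH3 stretch that the choice by name did not use. A search of the translated coding sequence of the longest coding transcript (GENCODE M21, GRCm38) for a leucine, any 3 residues, a glycine or alanine, and an aspartate found 1 match in each of the 9 members shown here and 2 in Pmaip1, which is not shown. The stretch is shown because it is the part that unites genes with otherwise different roles and directions of change. Each line gives 36 coding bases, 5′ to 3′ on the coding strand, with the codons for leucine, for glycine or alanine, and for aspartate in capitals.
Bcl2, chr1:106712575-106712610, minus strand, exon 1 of 2: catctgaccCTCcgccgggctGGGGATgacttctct
Bcl2l1, chr2:152829697-152829732, minus strand, exon 2 of 3: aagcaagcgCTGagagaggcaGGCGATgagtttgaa
Mcl1, chr3:95659427-95659462, plus strand, exon 1 of 3: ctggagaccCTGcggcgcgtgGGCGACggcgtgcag
Bax, chr7:45465997-45466032, minus strand, exon 3 of 6: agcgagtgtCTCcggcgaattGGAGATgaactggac
Bak1, chr17:27022531-27022566, minus strand, exon 4 of 6: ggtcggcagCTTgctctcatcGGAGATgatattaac
Bid, chr6:120897289-120897324, minus strand, exon 4 of 6: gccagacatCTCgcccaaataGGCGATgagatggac
Bcl2l11, chr2:128147141-128147176, plus strand, exon 3 of 4: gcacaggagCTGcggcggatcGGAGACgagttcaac
Bik, chr15:83543075-83543110, plus strand, exon 3 of 5: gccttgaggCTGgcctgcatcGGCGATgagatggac
Bmf, chr2:118545100-118545135, minus strand, exon 4 of 5: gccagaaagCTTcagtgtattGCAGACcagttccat
The codon before aspartate was for glycine in 8 of these 9 genes, and Bmf alone had GCA, for alanine. Bbc3, a BH3-only gene outside the 10, also had an alanine codon there, GCG.

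Total counts ranged from 26007503 to 28986526 with sgNeo and from 29613678 to 41729299 with sgLkb1. Levels below are CPM, counts divided by the scaled library size, and values of single libraries are given in the order of replicates 1, 2 and 3. Stk11, the targeted gene, was at 68.3, 33.4 and 82.7 CPM with sgNeo against 23.5, 25.6 and 25.3 CPM with sgLkb1. The groups did not overlap, and sgNeo replicate 2 lay nearer to the sgLkb1 libraries than to the other sgNeo libraries. It had means of 61.5 ± 25.4 CPM in sgNeo and 24.8 ± 1.14 CPM in sgLkb1 (SD, n = 3), a difference that passed the test (adjusted p = 0.023 by edgeR) but kept its call, of the 6 fits that left out a library, only in the fit lacking sgNeo replicate 2. Ptprc, which encodes CD45, was at most 10.4 CPM in any library. Epcam, an epithelial surface marker, was at least 436 CPM, with means of 501 ± 60.2 CPM in sgNeo and 1073 ± 235 CPM in sgLkb1.

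Between the genotypes 1 member, Bcl2, rose and 1, Bik, fell, and the other 8 did not pass the test. All 10 members passed the filter on low counts. Over all 15978 genes tested 15.7% passed in either direction, 7.05% higher and 8.6% lower in sgLkb1, so 2 of 10 members is close to the background. The groups did not overlap for 4 members, Bcl2 and Bcl2l11 higher in sgLkb1 and Bik and Bmf lower, against 36.5% of all genes (16.3% higher and 20.3% lower). The median log2 fold change (sgLkb1 minus sgNeo) was 0.32 over the members and 0.02 over all genes tested. Of the 2 genes that passed, the higher one is pro-survival and the lower one is BH3-only, but neither role had a single direction. Log2 fold changes of the other pro-survival members were 0.23 for Mcl1 and -0.31 for Bcl2l1. Those of the other BH3-only members were 0.90 for Pmaip1, 0.50 for Bcl2l11, 0.41 for Bid and -0.79 for Bmf.

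Bcl2, the founding pro-survival gene, was at 8.70, 10.7 and 11.8 CPM with sgNeo against 17.7, 29.8 and 16.01 CPM with sgLkb1. Every sgLkb1 library lay above every sgNeo library, and sgLkb1 replicate 2 was the highest. Mean levels were 10.4 ± 1.55 and 21.2 ± 7.50 CPM (SD, n = 3), a 2.04-fold rise (95% interval 1.31 to 3.16; log2 fold change 1.03, SE 0.28, adjusted p = 0.040 by edgeR). The call was lost without sgNeo replicate 1, 2 or 3 or sgLkb1 replicate 2, with adjusted p by edgeR of 0.14, 0.13, 0.086 and 0.11, and omitting sgLkb1 replicate 2 left a log2 fold change of 0.73. With limma-voom Bcl2 also missed the threshold (0.98 on the log2 scale, adjusted p = 0.066 by limma-voom). An exon of the antisense gene D630008O14Rik overlaps Bcl2 by 558 bases, and that gene was at most 0.24 CPM in any library.

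Mcl1, a short-lived pro-survival protein that cells must make continuously, was at 266, 225 and 225 CPM with sgNeo against 390, 241 and 212 CPM with sgLkb1. One sgLkb1 library stood above the rest and the others lay among or below the sgNeo libraries. The log2 fold change was 0.23 (SE 0.24, adjusted p = 0.56 by edgeR), and -0.07 without sgLkb1 replicate 1. Bcl2l1, which encodes BCL-XL, was at 187, 213 and 231 CPM with sgNeo against 152, 159 and 199 CPM with sgLkb1. The groups overlapped through sgNeo replicate 1 and sgLkb1 replicate 3. Its log2 fold change was -0.31 (SE 0.17, 95% interval -0.70 to 0.08, adjusted p = 0.26 by edgeR).

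**Figure D1:**
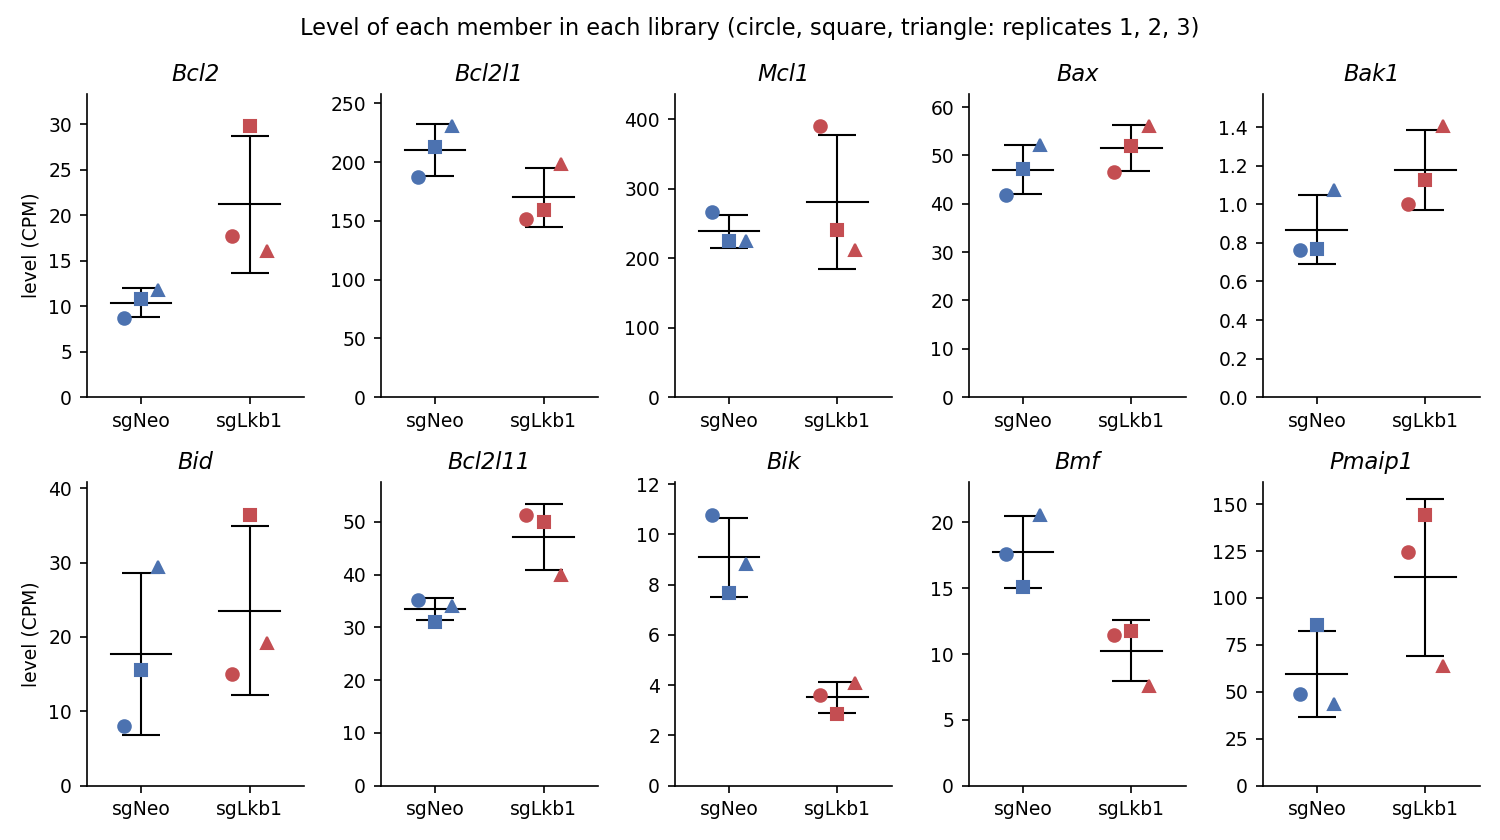
Level of each of the 10 members in CPM (vertical axes, linear from 0) in sgNeo (blue) and sgLkb1 (red) libraries, with circles, squares and triangles for replicates 1, 2 and 3 and black bars for the mean and SD. The groups are apart for Bcl2, Bcl2l11, Bik and Bmf and overlap for the other 6 members.

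Neither effector among the members passed the test. Bax, a pore former that moves from the cytosol to mitochondria, was at 41.9, 47.1 and 52.1 CPM with sgNeo against 46.6, 52.0 and 56.1 CPM with sgLkb1. The groups overlapped, and the 95% interval of the log2 fold change, -0.22 to 0.48, does not reach a change of 1 either way (adjusted p = 0.60 by edgeR). Bak1, the pore former that sits on the mitochondrial membrane, was at 0.76, 0.77 and 1.08 CPM with sgNeo against 1.00, 1.13 and 1.41 CPM with sgLkb1. These levels rest on 19 to 27 counts with sgNeo and 41 to 48.8 expected counts with sgLkb1. The difference did not pass (log2 fold change 0.44, 95% interval -0.66 to 1.54, adjusted p = 0.59 by edgeR). Of the 50-base windows of Bak1 transcripts 17.1% also occur in Ggnbp1, which overlaps it on the other strand. Ggnbp1 itself was at 1.74 to 4.06 CPM in sgNeo and 1.03 to 1.15 CPM in sgLkb1.

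Of the 5 BH3-only members Bik fell and the other 4 did not pass. Bik, an activator of the mitochondrial route that resides at the endoplasmic reticulum, was at 10.8, 7.65 and 8.80 CPM with sgNeo against 3.62, 2.86 and 4.07 CPM with sgLkb1. The lowest sgNeo library was above the highest sgLkb1 library. The means were 9.08 ± 1.59 and 3.52 ± 0.61 CPM (SD, n = 3), a 2.58-fold fall (95% interval 1.63 to 4.08; log2 fold change -1.37, SE 0.29, adjusted p = 0.016 by edgeR). The call was lost without sgNeo replicate 1 (adjusted p = 0.072 by edgeR) and without sgLkb1 replicate 2 (adjusted p = 0.057 by edgeR). Bik spans chr15:83526862-83544634 on the plus strand (GRCm38), and none of its 50-base windows occurs in another annotated gene.

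Bmf, a BH3-only gene linked to detachment from the matrix, was at 17.6, 15.1 and 20.6 CPM with sgNeo against 11.4, 11.7 and 7.57 CPM with sgLkb1. The groups did not overlap, and the difference missed the threshold (log2 fold change -0.79, SE 0.24, adjusted p = 0.060 by edgeR). Bcl2l11, which encodes BIM and is known to be raised by FOXO factors and restrained by ERK signalling, was at 35.1, 31.1 and 34.0 CPM with sgNeo against 51.4, 50.04 and 40.03 CPM with sgLkb1. Here too the groups were apart, in the other direction, and the threshold was missed (log2 fold change 0.50, SE 0.16, adjusted p = 0.070 by edgeR). DESeq2 called both, with DESeq2 adjusted p of 0.023 for Bmf and 0.026 for Bcl2l11. Over the 15 other settings the adjusted p ran from 0.023 to 0.18 for Bmf and from 0.026 to 0.24 for Bcl2l11.

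Pmaip1, which encodes NOXA, a partner of MCL1, was at 49.0, 85.8 and 43.4 CPM with sgNeo against 124, 144 and 64.0 CPM with sgLkb1. The groups overlapped because sgNeo replicate 2 lay above sgLkb1 replicate 3, and the difference did not pass (log2 fold change 0.90, SE 0.35, adjusted p = 0.12 by edgeR). On omitting sgLkb1 replicate 3 it reached 1.16 (adjusted p = 0.044 by edgeR), and it passed in 4 of the 15 other settings, DESeq2 among them, over which the adjusted p ran from 0.0020 to 0.32. Bid, the BH3-only protein that caspase-8 cuts and so ties death receptors to mitochondria, was at 8.02, 15.5 and 29.4 CPM with sgNeo against 14.97, 36.4 and 19.2 CPM with sgLkb1. It was the most variable member within groups, with a 3.67-fold range among sgNeo libraries and a 2.43-fold range among sgLkb1 libraries (log2 fold change 0.41, adjusted p = 0.61 by edgeR). It overlaps Bcl2l13 on the other strand by 628 bases, and 16.4% of its 50-base windows occur there, at a Bcl2l13 level of 29.0 to 43.1 CPM.

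Levels can be compared between genes only per length, and the values in the next sentences are CPM per kb of annotated exon. The length takes in all annotated exons of a gene, whether or not the expressed transcripts hold them. The order and the shares depend on that choice. In sgNeo libraries the order was Mcl1 at 69.9 ± 6.93, Bcl2l1 at 45.8 ± 4.78, Bax at 29.8 ± 3.23, Pmaip1 at 21.7 ± 8.43, Bik at 5.71 ± 1.00, Bid at 4.97 ± 3.06, Bcl2l11 at 4.16 ± 0.26, Bmf at 3.38 ± 0.52, Bcl2 at 1.14 ± 0.17 and Bak1 at 0.36 ± 0.074 (SD, n = 3). Neighbours whose ranges overlapped were Bax and Pmaip1, Bik and Bid, Bid and Bcl2l11, and Bcl2l11 and Bmf. In sgLkb1 libraries Mcl1 (82.1 ± 28.002) was still first and Bak1 (0.49 ± 0.086) last, Pmaip1 (40.6 ± 15.3) stood second and Bik went from the fifth place to the eighth, at 2.21 ± 0.39. Bcl2 at 2.31 ± 0.82 made up 1.30, 3.00 and 1.63% of the summed level of the 3 pro-survival members with sgLkb1, against 0.79, 1.03 and 1.09% with sgNeo. Mcl1 and Bcl2l1 transcripts made up the rest in both genotypes. That pool was at 114 to 120 with sgNeo and 107 to 149 with sgLkb1. It leaves out pro-survival genes that are not members, so it is not the whole pro-survival level. Of these, Bcl2a1b was at 35.8 ± 9.72 with sgNeo and 6.76 ± 2.40 with sgLkb1.

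Among the 5 BH3-only members Pmaip1 held 51.7, 66.4 and 41.9% of the summed CPM per kb with sgNeo against 75.1, 72.03 and 61.9% with sgLkb1. Bik held 19.5, 10.2 and 14.6% with sgNeo against 3.75, 2.45 and 6.77% with sgLkb1. The shares of Bik did not overlap between the groups, and those of Pmaip1 did. These shares are a description and were not tested.

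**Figure D2:**
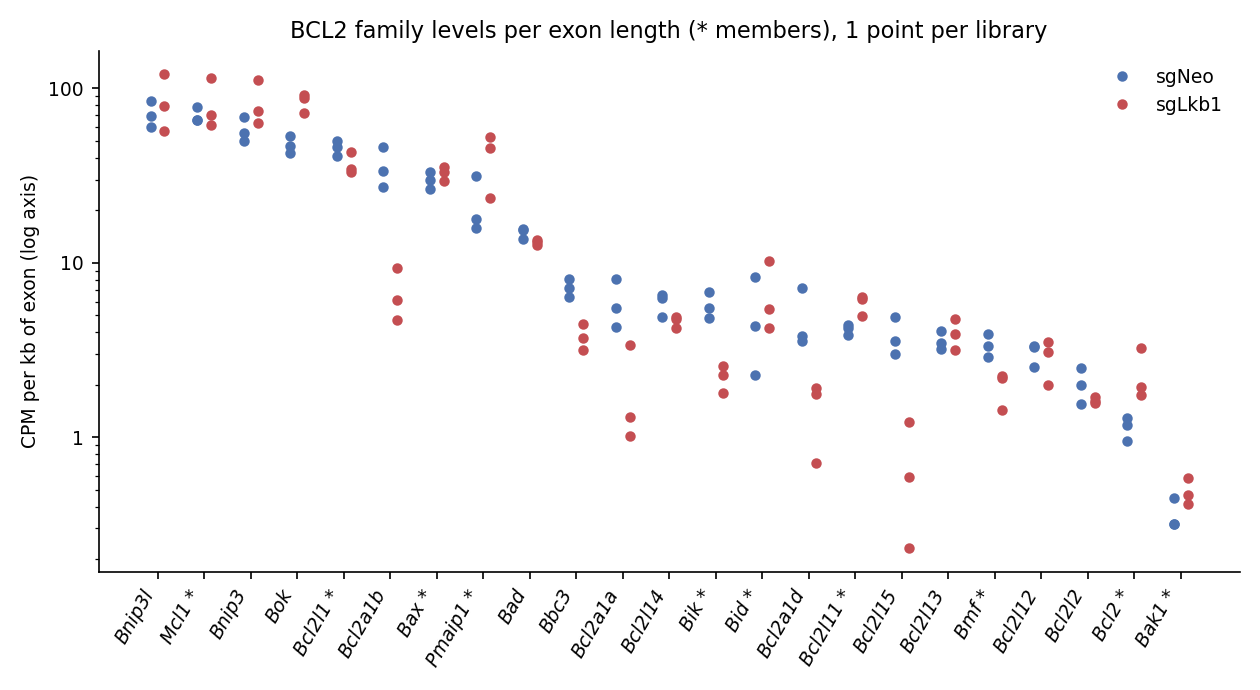
CPM per kb of annotated exon (vertical axis, log scale) for the 10 members (asterisks) and 13 other BCL2 family genes, 1 point per library, sgNeo in blue and sgLkb1 in red, ordered by the sgNeo mean. Mcl1 is the highest member and Bak1 the lowest in both genotypes, and Bok lies above Bax.

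Of 15 other BCL2 family genes 13 were tested, and 1 rose and 3 fell (median log2 fold change -0.31), against 7.05% higher and 8.6% lower over all genes tested. Bok, a BAX-like effector, rose from 87.4 ± 9.64 to 155 ± 19.5 CPM (0.83 as a log2 fold change, SE 0.16, adjusted p = 0.013 by edgeR), with sgNeo at 78.7, 85.7 and 97.8 CPM and sgLkb1 at 170, 133 and 163 CPM in replicates 1, 2 and 3. Per kb of exon Bok held 60.7 to 61.4% of the summed level of Bax, Bak1 and Bok with sgNeo and 68.3 to 75.4% with sgLkb1. Bbc3, which encodes PUMA, a BH3-only protein, fell from 15.3 ± 1.78 to 8.02 ± 1.43 CPM (log2 fold change -0.93, adjusted p = 0.028 by edgeR). Bcl2l15, which shares 19.6% of its 50-base windows with the overlapping Gm43064, fell from 10.4 ± 2.63 to 1.85 ± 1.37 CPM (log2 fold change -2.48, adjusted p = 0.022 by edgeR). Bcl2a1b, a copy of the pro-survival A1 gene, fell from 29.2 ± 7.94 to 5.52 ± 1.96 CPM (-2.40 as a log2 fold change, SE 0.32, adjusted p = 0.0025 by edgeR).

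Reads of the A1 copies are hard to assign, since 79.2% of the 50-base windows of Bcl2a1b occur in other genes, mainly the copies Bcl2a1d and Bcl2a1a and the overlapping Gm29094. The sum of Bcl2a1a, Bcl2a1b and Bcl2a1d was 50.7, 35.3 and 28.9 CPM with sgNeo against 11.1, 6.59 and 7.37 CPM with sgLkb1, with no overlap of the groups; the sum was not tested. Bcl2a1b kept its call in all 6 fits that left out a library. Bok lost it without sgNeo replicate 1 or 2 (adjusted p by edgeR as high as 0.073), Bcl2l15 without sgNeo replicate 1 or 2 or sgLkb1 replicate 3 (up to 0.074), and Bbc3 in 5 of 6 such fits (up to 0.097). Without sgNeo replicate 1 or 2 the list held 0 higher and 1 lower, and without sgNeo replicate 3, sgLkb1 replicate 2 or sgLkb1 replicate 3 it held 1 higher and 2 lower. Without a filter, and likewise with DESeq2, 1 was higher and 5 were lower, Bcl2a1a and Bcl2a1d being the added genes.

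Bad and Bcl2l2 did not pass (log2 fold changes -0.19 and -0.31), nor did the mitophagy genes Bnip3 and Bnip3l (0.51 and 0.25), of which 47.2% and 20.8% of 50-base windows occur in other genes, pseudogenes among them. Bcl2l10 and Hrk had too few counts to test.

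**Figure D3:**
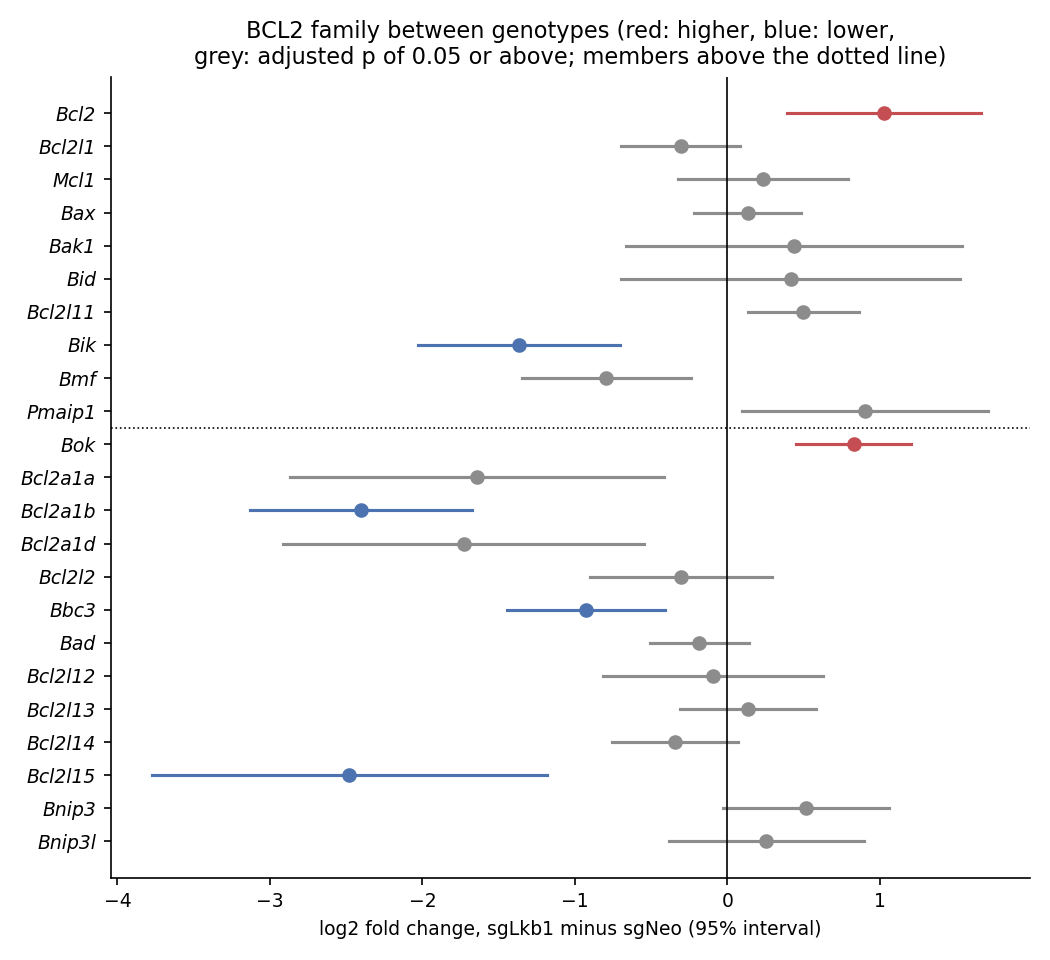
Log2 fold change, sgLkb1 minus sgNeo, of the 10 members (above the dotted line) and 13 other BCL2 family genes, with 95% intervals from edgeR's standard errors. Of the members, Bcl2 in red passed higher and Bik in blue passed lower, while the intervals of Bcl2l11, Bmf and Pmaip1 leave out 0 although their adjusted p did not pass.

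Genes that act with the family on the way to caspases were taken from lists written for this tissue and pathway. The list counts here and in the paragraphs that follow stand against 7.05% higher and 8.6% lower over all genes tested. A single called gene in such a short list is not read as a result about the list. Of the mitochondrial arm, Apaf1, the scaffold of the apoptosome, was at 7.28 ± 0.96 and 12.1 ± 2.09 CPM and Cycs, cytochrome c, at 213 ± 48.2 and 408 ± 212 CPM, both short of the threshold (adjusted p = 0.081 and 0.11 by edgeR). Of 11 genes of the death receptor arm 1 rose and 0 fell (median 0.19): Casp8, the caspase that cuts BID, rose from 46.3 ± 1.05 to 73.0 ± 7.69 CPM (0.66 as a log2 fold change, SE 0.14, adjusted p = 0.018 by edgeR). Casp8 no longer passed in the 4 fits lacking sgNeo replicate 1, 2 or 3 or sgLkb1 replicate 2 (adjusted p by edgeR as high as 0.086). Fas, a death receptor, was at 12.3 ± 0.60 and 8.10 ± 1.83 CPM, short of the threshold (adjusted p = 0.14 by edgeR).

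Of 6 caspase inhibitor genes 1 rose and 0 fell (median log2 fold change 0.05): Birc5, survivin, which also serves in cell division, rose from 12.7 ± 1.47 to 22.0 ± 3.66 CPM (adjusted p = 0.032 by edgeR), a call that, of the 6 fits lacking a library, held only in the one lacking sgLkb1 replicate 1 (adjusted p by edgeR as high as 0.11). Without sgLkb1 replicate 1, Birc3 also passed, lower. Xiap and Birc2 did not pass (log2 fold changes 0.21 and 0.02), and both turned below 0 without sgLkb1 replicate 1 (-0.07 and -0.06). Of 18 genes for transcription factors and related regulators of BH3-only genes 17 were tested, and 1 fell and 0 rose (median -0.11): Stat5a, a cytokine-driven activator of pro-survival genes, fell from 10.0 ± 0.46 to 5.03 ± 0.36 CPM (log2 fold change -0.99, adjusted p = 0.025 by edgeR). With no filter Stat5a did not pass, and of the 6 fits lacking a library it passed only in the one lacking sgLkb1 replicate 1, where Trp73 was tested and passed, higher. Trp53 was at 5.53 ± 0.52 and 7.53 ± 3.50 CPM without passing. Of 8 genes for proteins that bind or degrade members, 7 were tested and 0 passed under edgeR or DESeq2, the lowest unadjusted p by edgeR being 0.071, and Tpt1 passed, higher, when no filter was applied. Among them were Huwe1 and Usp9x, which act on MCL1 protein, at log2 fold changes of 0.07 and 0.51.

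Genes known as p53 targets, a list that holds Bax, Pmaip1 and Bbc3 too, had 2 of 14 higher and 2 lower (median log2 fold change 0.37). Phlda3 rose from 3.62 ± 1.21 to 15.8 ± 6.24 CPM (log2 fold change 2.12, adjusted p = 0.012 by edgeR) and Perp from 107 ± 11.98 to 215 ± 55.7 CPM (adjusted p = 0.016 by edgeR), while Bbc3 and Sesn2 fell, Sesn2 from 41.5 ± 1.86 to 20.01 ± 2.91 CPM (adjusted p = 0.0051 by edgeR). Cdkn1a and Mdm2, the best known targets, were at log2 fold changes of 0.01 and 0.04 and did not pass. The list had 1 higher and 1 lower when any sgNeo library was left out, 1 lower without sgLkb1 replicate 1 or 2, and 5 higher without sgLkb1 replicate 3. With RLE scaling 4 were higher, Ccng1 and Aen being the added genes, and 3 with upper-quartile scaling. Without a filter 6 were higher and with DESeq2 7, the member Pmaip1 among them in both.

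Markers of cell types were read beside these results. Which of the sorted cells gave the reads of each marker was not tested. All 8 alveolar type 2 markers were lower in sgLkb1, with summed levels of 121717 to 144118 CPM in sgNeo and 12070 to 19920 CPM in sgLkb1 libraries, and their part in the lower Bik, Bmf, Bbc3 or Bcl2a1b was not tested. Of 13 leukocyte markers 8 were tested and 3 were lower, the B-cell genes Cd79a, Cd79b and Ighm. The list summed to 40.9 to 68.3 CPM in sgNeo and 48.5 to 54.4 CPM in sgLkb1, with Cd3e, Cd3g, Nkg7, Jchain and Mzb1 too low to test. A1 genes and Bcl2 are also expressed by leukocytes, and their part was not tested. Of 12 myeloid and neutrophil markers 11 were tested, with Mrc1 higher and Lyz1 lower, and 9 of the 11 had a log2 fold change above 0 (median 0.44). Their summed level was 509 to 859 CPM in sgNeo and 78.9 to 141 CPM in sgLkb1, most of it Lyz1 in sgNeo (680 ± 182 CPM, against 29.5 ± 13.6 CPM in sgLkb1). The other 11 markers of that list, chosen after these values were seen, summed to 34.5 to 43.7 CPM in sgNeo and 56.8 to 95.9 CPM in sgLkb1. Lyz1 was lower in sgLkb1, as the alveolar type 2 markers were, so the full sum is not read as a level of myeloid cells. Ly6g had counts in sgNeo replicate 1 only. In sgLkb1 libraries 4 of 9 fibroblast markers were higher (summed 52.4 to 129 CPM in sgNeo and 196 to 1429 CPM in sgLkb1). So were 3 of 8 endothelial markers (45.0 to 79.6 and 89.8 to 160 CPM). Of 6 mesothelial markers 2 were higher, Msln and Aldh1a2 (list sum 172 to 428 and 828 to 1417 CPM). Wt1 and Calb2 of that list were not tested. Msln made up most of the mesothelial sum in every library (mean 261 ± 143 CPM with sgNeo, 1033 ± 232 CPM with sgLkb1). That sum is therefore not taken as a measure of mesothelial cells. Of 5 tumour epithelium markers Epcam was higher in sgLkb1 (log2 fold change 1.10, adjusted p = 0.011 by edgeR). Nkx2-1 was lower (-1.09, adjusted p = 0.021 by edgeR), and Cdh1, Krt8 and Krt18 did not pass. Of 5 airway markers 0 passed. The fibroblast and endothelial sums were highest in sgLkb1 replicate 3, the sgLkb1 library with the lowest Bcl2, Bcl2l11, Pmaip1, Mcl1 and Bmf. The same library had the highest Bcl2l1, Bax, Bak1 and Bik of the sgLkb1 libraries. Without sgLkb1 replicate 3 Bcl2 was at a log2 fold change of 1.18 (adjusted p = 0.035 by edgeR). Bik was then at -1.49 (adjusted p = 0.028 by edgeR). The part of fibroblasts or endothelial cells in the levels of the members was not tested. In bulk libraries fewer cells of a type and less RNA per cell cannot be told apart.

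The 250 bases before the start of Bcl2 are shown because it is the called member with an entry in the RefSeq promoter table (GRCm38.p6), which matched 8 of the 10 members. The window is chr1:106714291-106714540 on the minus strand, and capitals mark GC boxes, GGGCGG on either strand.
Bcl2: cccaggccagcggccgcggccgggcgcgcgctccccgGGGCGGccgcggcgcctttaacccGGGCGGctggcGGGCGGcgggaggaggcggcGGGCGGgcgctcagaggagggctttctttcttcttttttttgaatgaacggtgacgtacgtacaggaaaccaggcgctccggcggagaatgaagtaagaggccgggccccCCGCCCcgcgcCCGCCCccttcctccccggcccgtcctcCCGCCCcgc
The window held 7 GC boxes and was 74.8% G or C, against a median of 52.4% over 32851 promoter windows of the same length. The 6 motifs below were searched on both strands, and genes were counted once where any of their windows held the motif. The GC box was in 5 of 8 members and 35.4% of 27025 genes. The FOXO core TGTTTAC was in 1 of 8, Bcl2l11, and 3.54% of genes, and the NF-kB core was in Bcl2l1 and Mcl1 and 1.65% of genes. The cAMP response element TGACGTCA, the STAT core TTCNNNGAA and TATAAA were in 0 of 8 members and in 1.77, 8.13 and 14.3% of genes. A match is a description of letters and says nothing of binding.

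The genes with profiles most like that of Bik, the called member with the greater log2 fold change in size, were Sftpb, which is also among the alveolar type 2 markers, Osgin1 and Crip2. Likeness was the root mean square difference of log2 CPM over the 6 libraries after centring each gene, among 10444 other named genes with a mean of at least 5 CPM. It was 0.092 for Sftpb, 0.11 for Osgin1 and 0.11 for Crip2. Their levels were 5824 ± 792 and 2220 ± 436 CPM for Sftpb, 128 ± 10.2 and 53.9 ± 8.95 CPM for Osgin1, and 775 ± 76.3 and 345 ± 60.7 CPM for Crip2 in sgNeo and sgLkb1 (SD, n = 3).

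**Figure D4:**
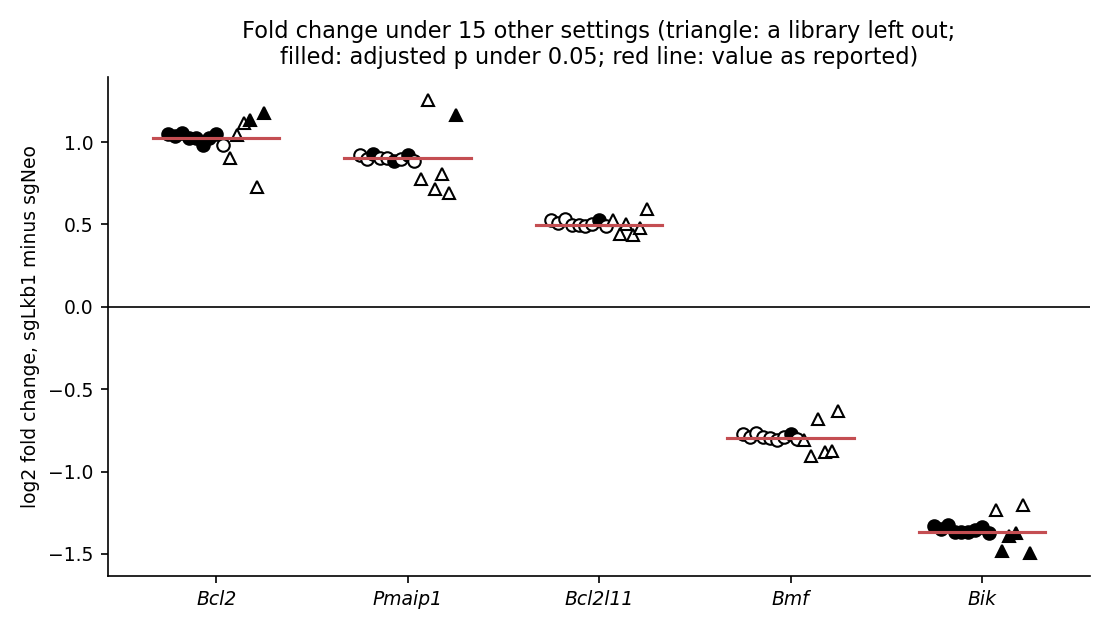
Log2 fold change, sgLkb1 minus sgNeo (vertical axis), of 5 members under 15 other settings each, with triangles for fits that left out a library, filled symbols for an adjusted p under 0.05 and a red line for the value as reported. All 5 keep their direction in every setting, and Bcl2 passed in 10 of 15, Bik in 13, Pmaip1 in 4, and Bcl2l11 and Bmf in 1 each.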

How the data were processed

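RNA of 6 libraries was sequenced, 3 per group. The values the authors deposited are expected counts for each gene. Tools credited in the submitters' processing notes are STAR, RSEM, FastQC and DESeq2, with build GRCm38 and no versions. The strand setting is not given in the sources used here, so reads of overlapping genes on opposite strands cannot be told apart, and RSEM divides reads between near-identical copies. Exact gene IDs matched GENCODE M21 for 98.1% of the table. Bmf matched there by ID with another version number.

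Expected counts were rounded. filterByExpr kept 15978 of 55487 genes, TMM scaled the libraries, and edgeR 4.0.16 (R 4.3.3) ran its quasi-likelihood test (two-sided, genotype as the only term, Benjamini-Hochberg over all genes tested, threshold 0.05). The SE is the size of the log2 fold change over the square root of F, and intervals use it. A count of 1 was 0.040 CPM in sgNeo libraries and 0.024 to 0.029 CPM in sgLkb1 libraries. Other settings tried were scaling by upper quartile or RLE, no filter, a CPM of at least 1 in 3 libraries, a block for replicate number, robust dispersion, removal of the 10 most abundant genes, DESeq2 1.42.0, limma-voom (limma 3.58.1) and each library left out. Counts of list members under these settings were added after seeing the data. The members and lists were chosen with earlier results of these data known. Named genes were the members, the other family genes, Stk11, the first 2 genes of each other list and up to 4 of its called genes. Others were named after their values were seen. The count for the mitochondrial arm is not reported here. On simulated data of 15978 genes the test recovered 26% of 50 genes changed 2-fold and 98% of 50 changed 4-fold, and called 6 of 15778 unchanged genes. Replicates of a group differed beyond sampling noise in every pair.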

Additional observations from a re-analysis of the deposited data

How the results depend on the processing

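Over 15 settings the number of genes that passed was 1129 to 2780 with a library left out (1325, 1129 and 1587 on omitting sgNeo replicate 1, 2 or 3, and 1529 on omitting sgLkb1 replicate 2), and 2279 to 3559 otherwise, against 2501. Members higher numbered 2 without a filter, 3 with DESeq2 and 0 with limma-voom, against 1, and 0 to 2 with a library left out. Members lower numbered 2 with DESeq2, against 1, and 0 to 1 with a library left out. No member passed without sgNeo replicate 1 or without sgLkb1 replicate 2. With the replicate number as a block 2880 genes and 2 members higher passed (Bcl2 and Pmaip1, the latter at 0.88) and Bik lower, with 4 of the other family genes lower against 3 and 6 p53 targets higher against 2. Deviations of same-numbered libraries correlated at 0.13, -0.02 and 0.11, and those of different-numbered libraries at -0.17 to 0.088. The main fit had genotype as its only term and did not take the numbers as pairs.

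With a library left out, some genes that never passed changed sign: Mcl1 (-0.071 to 0.39), Bid (-0.017 to 0.99), Bcl2l12 (-0.29 to 0.12), Bcl2l13 (-0.037 to 0.28), Bnip3l (-0.072 to 0.47), Xiap (-0.073 to 0.39), Birc2 (-0.10 to 0.22), Trp53 (-0.0061 to 0.71), Huwe1 (-0.064 to 0.18), Cdkn1a (-0.066 to 0.081) and Mdm2 (-0.048 to 0.17). Birc2 was also at -0.0085 with the block and -0.0055 with limma-voom, against 0.02. No called gene changed sign. The cause was not tested. Among the members Bak1 had the lowest counts, 19 to 48.8 expected counts a library.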
